A study of Mus musculus with 2 samples.

Results

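The 37 genes described here belong to the Notch pathway. They are its receptors, ligands, fringe modifiers, target genes and their relatives, nuclear complex, cleaving enzymes and regulators of ligand or receptor handling. They were chosen by symbol, and all 37 were found among the 55536 gene entries of GENCODE M21. Polyadenylated RNA was measured in limbs of B6NCrl mouse embryos of both sexes at 12.5 days, in a single group. Limbs of 88 embryos were pooled for biological replicate 1 and limbs of 68 embryos for replicate 2, and no other age, genotype or treatment was used. The input was 10 ng of RNA with ERCC spike-ins, and forelimbs were not labelled apart from hindlimbs. With 1 group there was no comparison of conditions, so levels were compared between genes, transcripts and annotations, and every p-value compares the reads of these 2 pools.

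Notch signalling passes between touching cells. A Delta or Jagged ligand on one cell binds a Notch receptor on its neighbour, a metalloprotease and then gamma-secretase cut the receptor, and the freed intracellular part enters the nucleus, where it joins RBPJ and a Mastermind protein and switches on genes such as those of the Hes and Hey families. In the mouse limb the pathway is known for its work in the apical ectodermal ridge, in blood vessels, in muscle progenitors and in cartilage and joints.

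Levels are given as TPM, a unit that divides reads by transcript length and by depth. It allows one gene to be set against another as far as the length and the assigned reads of each are right. The libraries held 29633457 and 30118921 expected counts over genes, and 1 TPM of a transcript of 2000 nt rested on 37.5 and 37.9 reads. Spike-ins held 7.34% and 5.13% of TPM. All 10 markers of limb mesenchyme reached 1 TPM in both libraries and summed to 1012 and 1081 TPM. Msx1 and Prrx1 had the highest means, although Pitx1 and Prrx2 exceeded Prrx1 in replicate 2. The other lists summed to 315 and 289 TPM for limb ectoderm, 219 and 211 TPM for endothelium, 519 and 496 TPM for muscle, 153 and 137 TPM for pericytes and smooth muscle, 22.5 and 22.7 TPM for Schwann cell precursors, 16.0 and 19.0 TPM for neural tube and neurons and 6.01 and 5.52 TPM for presomitic mesoderm. Only 2 of the 6 pericyte and smooth muscle markers reached 1 TPM in both libraries. These were Acta2, at 107 and 95.5 TPM, and Pdgfrb, at 44.9 and 40.0 TPM, and the rest stayed at 0.57 TPM or less. The forelimb gene Tbx5 was at 40.0 and 28.4 TPM, while the hindlimb genes Pitx1 and Tbx4 were at 136 and 164 TPM and at 30.6 and 35.1 TPM, and the part of this in any difference between the libraries was not tested.

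Of the 37 genes, 33 reached 1 TPM in both libraries, beside 58.1% of all protein-coding genes. The 4 below were the target genes Hes5, Hes7, Hes2 and Hes3, and all receptors, ligands, fringes, nuclear factors and enzymes among the members passed. The median of these 33 was 17.2 TPM, beside 21.7 TPM for all protein-coding genes at a mean of at least 1 TPM. By role, the 6 cleavage genes summed to 308 and 298 TPM. The 10 target genes and relatives summed to 211 and 217 TPM, of which Hes6 held 94.9 and 101 TPM. The 4 genes of trafficking and modification summed to 82.1 and 83.9 TPM, and the 4 receptors to 67.3 and 60.5 TPM. The 4 nuclear genes summed to 61.4 and 63.5 TPM, the 3 fringes to 51.0 and 46.8 TPM, and the 6 ligands to 41.3 and 39.9 TPM. These sums cover groups of 3 to 10 genes and members only. Dlk1, a relative of the ligand Dlk2 at 115 and 96.1 TPM, is not a member and was left out of them. The cleavage genes had the highest sum in both libraries, also on complete coding transcripts alone, meaning those annotated with both ends of the reading frame. The ligands had the lowest with all transcripts, but on complete coding transcripts the fringes, at 36.4 and 32.4 TPM, lay below the ligands, at 37.3 and 34.7 TPM. In whole limbs a low level can come from few cells of a type or from little RNA per cell, and these cannot be told apart.

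**Figure D1:**
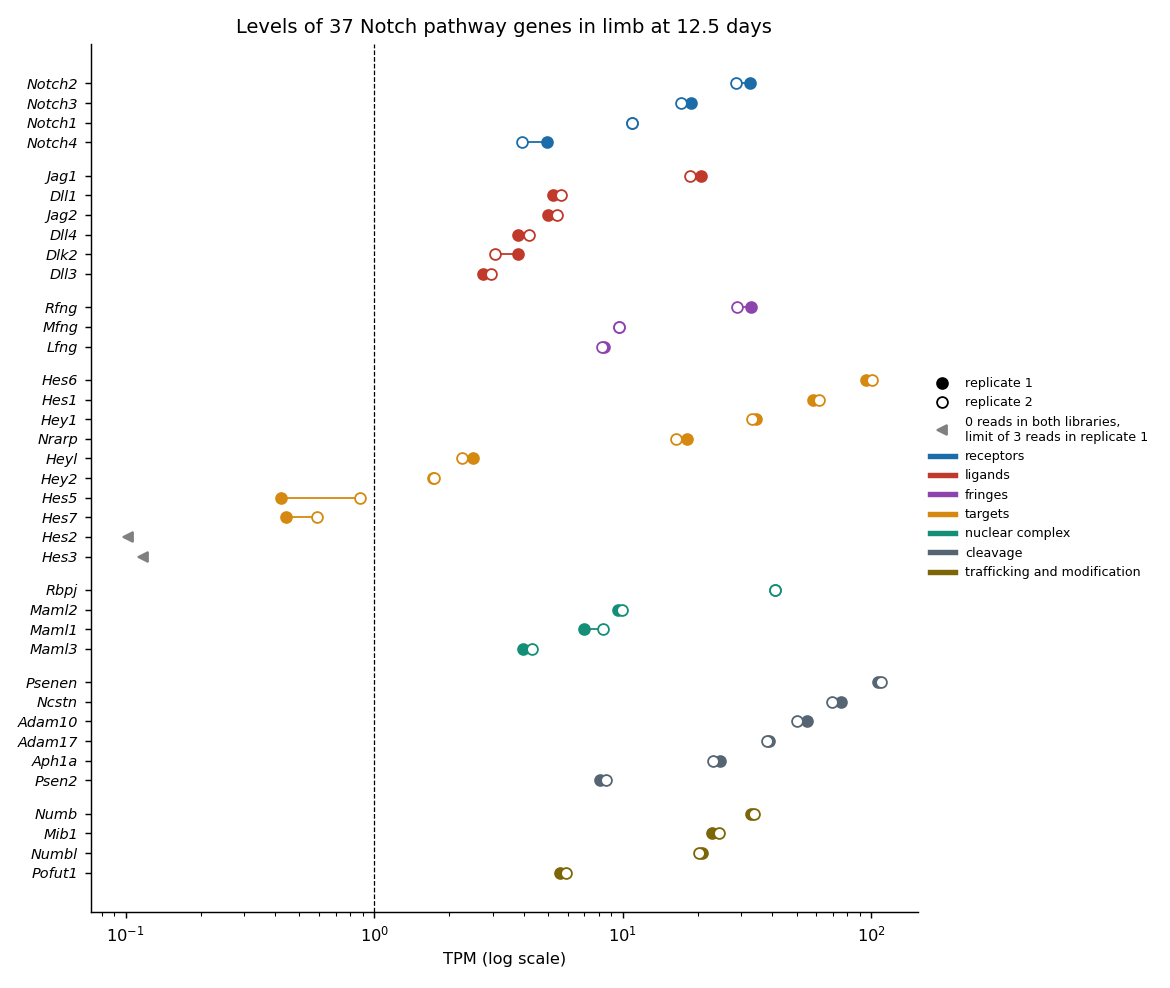
TPM of the 37 genes on a log axis, by role, with a filled point for replicate 1, an open point for replicate 2 and a dashed line at 1 TPM. Psenen and Hes6 lie farthest to the right at means of 108 and 98.0 TPM, Hes5 and Hes7 lie left of the line, and triangles mark for Hes2 and Hes3 the level of 3 reads in replicate 1, since neither gene had a read.

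All 4 receptors were present, and their levels stood in the same order in both libraries. Notch2 was at 32.5 and 28.5 TPM (mean 30.5 ± 2.83, SD, n = 2), Notch3, known from pericytes and smooth muscle, at 18.9 and 17.1 TPM, and Notch1 at 10.9 and 10.9 TPM. Notch4, known from endothelium, was lowest at 4.95 and 3.94 TPM. Notch2 thus held 47.7% ± 0.841 of receptor TPM, Notch3 28.2% ± 0.159, Notch1 17.2% ± 1.28 and Notch4 6.94% ± 0.597 (SD, n = 2). Each step of the order was set against the spread, the size of log2 difference between libraries that 95% of the 500 genes closest in level to the lower gene stayed under. A pair passed where the log2 ratio had the same sign in both libraries and exceeded the spread in each. The spread covers differences between the libraries only. An error that a gene carries alike in both libraries, as in its length or assigned reads, does not show in it and was not measured. Notch2 exceeded Notch3 by log2 0.78 and 0.74 against a spread of 0.39, Notch3 exceeded Notch1 by 0.79 and 0.65 against 0.45, and Notch1 exceeded Notch4 by 1.14 and 1.47 against 0.71, so all 3 steps passed. With the 99th percentile as the spread none of these 3 steps passed, while Notch1 stayed below Notch2 and Notch4 below Notch3.

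The receptors differed in how much of their level came from a complete coding transcript. The share was 97.2% and 96.7% for Notch2, 97.1% and 96.8% for Notch3 and 93.2% and 89.0% for Notch1. For Notch4 it was 53.5% and 57.9%, and the rest fell to short noncoding entries such as the 619-nt Notch4-210, with 5.99 and 13.4 reads. Short entries turn few reads into much TPM, and by reads the full-length Notch4-201 held 339 of 360 reads in replicate 1 and 295 of 312 in replicate 2. Counted on complete coding transcripts alone, Notch4 was at 2.65 and 2.28 TPM and held 4.14% ± 0.113 of receptor TPM. The posterior mean TPM that the authors also deposited put Notch1 at 14.8 and 14.4 TPM, and the step from Notch3 to Notch1 then no longer passed, at a mean log2 ratio of Notch1 over Notch3 of -0.29 in place of -0.72. On the other strand, exons of 0610009E02Rik, a gene at 3.74 TPM in both libraries, cover 7.50% of the exon bases of Notch1 and those of Gm13568, at 11.1 and 9.69 TPM, cover 2.91%. The use of strand in counting is not given in the sources used here.

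Among the 6 ligands that are members, Jag1, a Jagged ligand, was highest. Dlk1, the relative of Dlk2 outside the members, was higher at 115 and 96.1 TPM and is not counted in the shares below. Jag1 led within the members alone. It was at 20.7 and 18.6 TPM (19.7 ± 1.47, SD, n = 2) and held 48.4% ± 2.49 of the ligand TPM. Dll1, the Delta ligand known from somites and muscle progenitors, was at 5.25 and 5.65 TPM, and Jag2, whose loss in mice fuses digits, was at 5.01 and 5.43 TPM. Dll4, known from sprouting vessels, was at 3.78 and 4.19 TPM. Dlk2, a Delta-like protein without the domain that binds Notch in the other ligands, was at 3.77 and 3.06 TPM, and Dll3, which is known to act inside its own cell and not on neighbours, at 2.74 and 2.95 TPM. Jag1 exceeded the next ligand, Dll1, by log2 1.98 and 1.72 against a spread of 0.65. None of the 4 steps below Jag1 passed: Dll1 over Jag2, Jag2 over Dll4, Dll4 over Dlk2 and Dlk2 over Dll3 had log2 ratios of at most 0.46 against spreads of 0.68 to 0.98, so the order of these 5 ligands was not resolved.

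The reads behind the lower ligands were few. Dlk2 rested on 103 and 83 reads, Dll3 on 136 and 108, Dll1 on 264 and 310, Dll4 on 272 and 305, and Jag2 on 389 and 372, beside 2172 and 1979 for Jag1. Retained introns and other noncoding entries held part of the level of Dll1, Jag2 and Dll3, whose complete coding shares were 66.9% and 74.0%, and 75.7% and 65.1% for the first 2, while Dll3 was wholly complete coding in replicate 1 and 64.2% so in replicate 2. For Dll3 this rests on 9.59 and 3.09 reads of a pair of retained introns in replicate 2. On complete coding transcripts alone Jag1 held 52.1% ± 1.03 of the ligand TPM, and Dll4 took the place after it at 3.78 and 4.19 TPM, again without passing the spread against Dll1. Jag2 depended on the annotation as well, with 4.25 and 3.83 TPM in the older GENCODE M4 quantification.

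**Figure D2:**
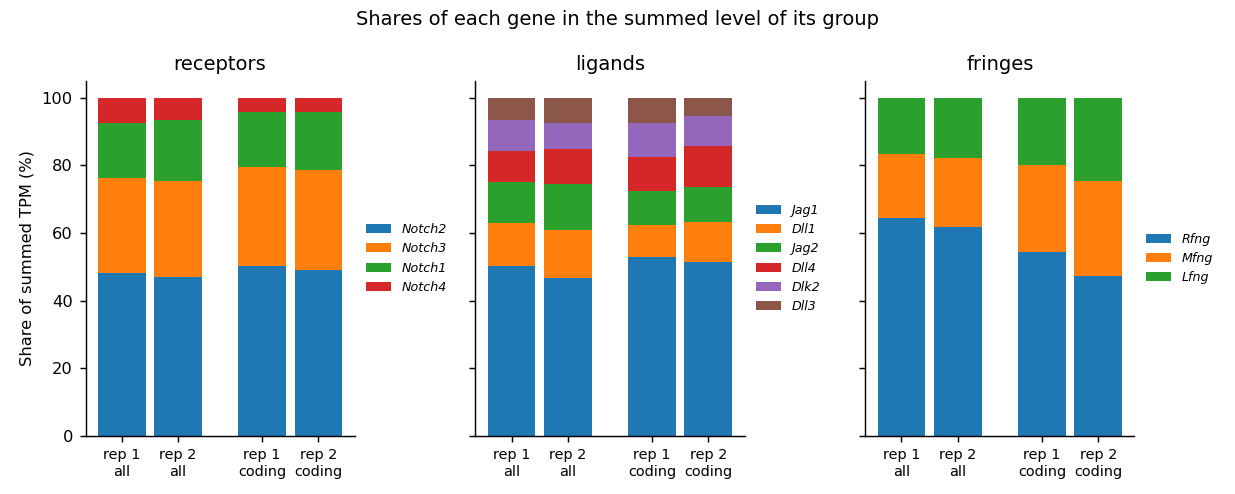
Share of each receptor, ligand and fringe in the summed TPM of its group (percent, vertical axis), as stacked bars for each library, from all transcript entries and from complete coding transcripts alone. Notch2 and Jag1 take the largest block of their groups in every bar, at 47.7% and 48.4% of TPM on average with all entries, and Rfng shrinks from 63.1% to 50.8% when only complete coding transcripts are counted.

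Fringe enzymes add a sugar to Notch receptors and so change which ligands they answer. Rfng was at 32.9 and 28.9 TPM, Mfng at 9.67 and 9.64 TPM and Lfng at 8.42 and 8.25 TPM. Rfng exceeded Mfng by log2 1.77 and 1.58 against a spread of 0.52, while Mfng and Lfng did not differ beyond their spread, with log2 ratios of 0.20 and 0.22 against 0.55. A noncoding entry of almost the whole gene, Rfng-202, took 40.0% and 47.0% of Rfng. The complete coding Rfng-201 was at 19.7 and 15.3 TPM, still above the coding levels of Mfng at 9.44 and 9.13 TPM and of Lfng at 7.17 and 7.97 TPM. Pofut1, which attaches the fucose that fringes extend, was at 5.60 and 5.90 TPM, and a retained-intron entry, Pofut1-205, held 44.3% and 48.4% of that.

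Target genes and their relatives, grouped here as targets, ranged from some of the most abundant members to genes without a read. Hes6 was at 94.9 and 101 TPM (98.0 ± 4.32, SD, n = 2), Hes1 at 58.5 and 61.4 TPM (59.9 ± 2.04, SD, n = 2) and Hey1 at 34.3 and 33.2 TPM. Nrarp, which holds back the pathway by acting on the intracellular part of the receptor, was at 18.1 and 16.4 TPM. Hes1 and Hey1 encode repressors switched on by Notch in many tissues, whereas Hes6 is known to act against Hes1 and to be expressed in differentiating muscle and nerve cells. All 3 steps from Hes6 to Hes1, to Hey1 and to Nrarp passed, at log2 0.70 and 0.72, 0.77 and 0.89, and 0.92 and 1.02, against spreads of 0.25, 0.30 and 0.43. The muscle list stood at 6 of 7 markers at 1 TPM, with Actc1 at 333 and 319 TPM and Myog at 92.9 and 86.3 TPM, and the part of muscle cells in the Hes6 level was not tested.

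The remaining 6 targets were low or without reads. Heyl was at 2.49 and 2.26 TPM and Hey2 at 1.72 and 1.74 TPM, and they did not differ beyond their spread, with log2 ratios of Hey2 over Heyl of -0.53 and -0.38 against 1.12. Hey1 exceeded Hey2 by 19.5-fold and Heyl by 14.2-fold, both past the spread. Hes5, known from neural progenitors, was at 0.42 and 0.88 TPM on 9.65 and 16 reads, and Hes1 exceeded it by log2 7.12 and 6.12. Hes7, known from the segmentation clock of the presomitic mesoderm, was at 0.44 and 0.59 TPM on 15 and 20 reads. Hes2 and Hes3 had no read in either library, and 3 reads would have given 0.102 and 0.101 TPM for Hes2 and 0.117 and 0.116 TPM for Hes3, limits that cover counting error only.

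Markers of the tissues in which Hes5 and Hes7 are best known were mostly under 1 TPM. The part of these tissues in the Hes5 and Hes7 levels was not tested. Of the 9 markers of neural tube and neurons only Dcx and Tubb3 reached 1 TPM in both libraries, at 8.14 and 7.11 TPM and at 7.13 and 11.5 TPM, while the progenitor markers Sox1 and Neurog2 had no read. Of the 5 presomitic markers only Cyp26a1 did, at 5.14 and 4.79 TPM, and Tbx6 was at 0.53 and 0.40 TPM. Antisense genes share exon bases with Nrarp, Hes5 and Hes7. Gm38287 covers 79.4% of the exon bases of Nrarp and was at 0.36 and 2.03 TPM, Gm20421 covers 31.8% of those of Hes5 and was at 0.30 and 0 TPM, and 9130213A22Rik covers 12.9% of those of Hes7 and was at 0.17 and 0.61 TPM. Without strand the reads of such partners cannot be told apart.

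RBPJ is known to bind the letters GTGGGAA, here searched on both strands, so that TTCCCAC counts as well, in the 250 bases before each gene start of the RefSeq promoter table for GRCm38.p6. The windows below show which of the target genes with an entry hold these letters near their start and which do not. Capitals mark a match, each sequence runs 5′ to 3′ on the strand of the gene, and the windows of Hes7 and Hey2 stop where an exon of GENCODE M21 begins. They lie at chr2:25180508-25180757 (plus strand) for Nrarp, chr1:91413223-91413472 (minus strand) for Hes6, chr4:154960673-154960922 (plus strand) for Hes5, chr11:69120203-69120403 (plus strand) for Hes7 and chr10:30842802-30843033 (minus strand) for Hey2.
Nrarp promoter: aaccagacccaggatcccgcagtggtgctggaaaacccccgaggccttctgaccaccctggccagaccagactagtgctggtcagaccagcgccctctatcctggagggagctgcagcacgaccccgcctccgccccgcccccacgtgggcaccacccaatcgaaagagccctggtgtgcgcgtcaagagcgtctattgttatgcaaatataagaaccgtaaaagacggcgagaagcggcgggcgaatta
Hes6 promoter: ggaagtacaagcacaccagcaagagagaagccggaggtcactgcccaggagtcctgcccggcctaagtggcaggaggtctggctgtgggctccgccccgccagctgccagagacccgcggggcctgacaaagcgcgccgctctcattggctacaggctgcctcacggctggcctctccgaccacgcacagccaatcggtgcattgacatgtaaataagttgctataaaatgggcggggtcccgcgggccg
Hes5 promoter: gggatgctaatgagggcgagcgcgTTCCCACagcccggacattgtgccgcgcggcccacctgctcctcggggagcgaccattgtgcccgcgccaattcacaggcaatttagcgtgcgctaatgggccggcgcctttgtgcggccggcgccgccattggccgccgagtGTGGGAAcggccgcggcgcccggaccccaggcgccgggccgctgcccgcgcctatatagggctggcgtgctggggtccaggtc
Hes7 promoter: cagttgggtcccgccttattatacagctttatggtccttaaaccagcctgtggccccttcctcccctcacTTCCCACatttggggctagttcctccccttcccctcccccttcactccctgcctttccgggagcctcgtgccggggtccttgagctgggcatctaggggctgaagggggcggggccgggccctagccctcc
Hey2 promoter: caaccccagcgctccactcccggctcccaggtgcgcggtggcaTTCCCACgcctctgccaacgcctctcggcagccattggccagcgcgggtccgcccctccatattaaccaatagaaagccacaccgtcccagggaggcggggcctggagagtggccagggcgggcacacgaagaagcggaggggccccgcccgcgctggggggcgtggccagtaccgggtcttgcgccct

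Hes5 held a match at 226 and another at 83 bases before its start, in opposite directions, Hey2 held 1 at 207 bases and Hes7 held 1 at 180 bases. These 3 targets stood at 0.42 to 1.74 TPM, while the windows of the more abundant Nrarp and Hes6 held no match. Only 5 of the target genes had an entry, and a relation of matches to level was not tested. Among all 30 members with an entry, Lfng and Psen2 also held a match, at 109 and 89 bases before the start, which makes 5 of the 39 windows of members, beside 5.42% of the 32851 windows of the table. The shorter core TGGGAA, which lies within these letters, stood in 21.6% of windows. A match of letters is a description of the window and not a measured site. Hes1, Hes2, Hes3, Hey1, Heyl, Mfng and Mib1 had no entry.

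In the nuclear complex, Rbpj, the DNA-binding partner of cleaved Notch, was at 40.9 and 40.9 TPM and exceeded each Mastermind gene. These genes encode the coactivators that complete the complex: Maml2 was at 9.52 and 9.95 TPM, Maml1 at 7.01 and 8.33 TPM and Maml3 at 3.97 and 4.32 TPM. Rbpj exceeded Maml2 by log2 2.10 and 2.04 against a spread of 0.52. Maml2 and Maml1 did not differ beyond their spread, with log2 ratios of 0.44 and 0.26 against 0.60, and Maml1 exceeded Maml3 by 0.82 and 0.95 against 0.72. That last step did not pass at the 99th percentile, with counts not divided by length or with posterior mean TPM, and it turned on the transcripts counted. Maml1-202, annotated without its 5′ end, took 78.2% and 65.4% of Maml1, and on complete coding transcripts alone Maml1 was at 1.53 and 2.88 TPM and Maml3 at 3.61 and 3.30 TPM. Maml3 over Maml1 was then log2 1.24 and 0.20 against a spread of 0.89, which did not pass. Maml2 did exceed Maml1 on complete coding transcripts, at a mean log2 ratio of Maml1 over Maml2 of -2.21 against 0.89. It also did with counts not divided by length, at -0.67 against 0.31. Maml2 was at 12.4 and 13.1 TPM in the M4 quantification, 0.763 times as high with M21 as with M4.

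Rbpj was itself split between transcripts that start the protein in different ways. Rbpj-203 held 56.3% and 68.9% of its TPM, on 2427 and 3001 reads, and Rbpj-202 held 32.2% and 22.3%, on 1338 and 936 reads. The first pair of coding segments of each is shown because it is at this first segment that they part. Capitals mark the first segment and lower case the shared second, 5′ to 3′ on the plus strand of mm10, read from the GENCODE M21 transcripts. For Rbpj-203 they span chr5:53590705-53627421 and for Rbpj-202 chr5:53555890-53627421.
Rbpj-203: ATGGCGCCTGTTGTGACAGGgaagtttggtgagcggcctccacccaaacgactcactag
Rbpj-202: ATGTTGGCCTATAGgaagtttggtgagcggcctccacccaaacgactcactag
Rbpj-203 held more than Rbpj-202 in both libraries. The gap was wider in replicate 2, while the level of the whole gene was 40.9 TPM in both, and this difference in shares was not tested. Assignment of reads between entries that share most exons is an estimate, and its error is not given in the sources used here.

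Cleavage genes included the most abundant member. Psenen, the small subunit that completes gamma-secretase, was at 106 and 109 TPM (108 ± 1.78, SD, n = 2), and Ncstn, the subunit that receives the substrate, was at 75.5 and 69.1 TPM. Adam10 and Adam17, the metalloproteases that make the first cut, were at 54.9 and 50.2 TPM and at 38.8 and 37.9 TPM. Aph1a, a scaffold subunit, was at 24.6 and 23.1 TPM, and Psen2, a catalytic subunit, at 8.08 and 8.55 TPM. All 5 steps of this order passed, the narrowest being Adam10 over Adam17 at log2 0.50 and 0.40 against a spread of 0.25. This narrowest step did not pass at the 99th percentile, and Ncstn over Adam10 did not on complete coding transcripts alone. Psenen is short, and its reads, 1197 and 1248, were fewer than the 3671 and 3338 of Ncstn, so the order of these 2 genes turned over when counts were not divided by length. On the other strand, exons of U2af1l4, at 70.3 and 70.0 TPM, cover 9.33% of the exon bases of Psenen. Those of Gm49396, at 14.5 and 13.0 TPM, cover 8.71%, and those of Copa, at 178 and 175 TPM, cover 4.91% of Ncstn.

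Aph1a has relatives outside the list that can take its place in the enzyme. It exceeded Aph1b, at 10.5 and 11.5 TPM, by log2 1.23 and 1.01 against 0.45, while Aph1c was at 1.88 and 0.89 TPM. Aph1b and Aph1c are close copies, and their reads may be split uncertainly. The Aph1a level depended on the annotation, at 16.6 and 16.9 TPM with M4. The 286-nt incomplete entry Aph1a-203 held 36.4% and 26.5% of the M21 level on 33.1 and 22.9 reads, and the complete coding level was 14.0 and 15.4 TPM. Exons of Aph1a also share 12.9% of their bases with Car14 on the other strand, which was at 58.0 and 62.6 TPM.

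Regulators of endocytosis and of ligand activity lay in the middle of the range. Numb, an adaptor that holds Notch back, was at 32.8 and 33.6 TPM and its relative Numbl at 20.7 and 20.2 TPM, a log2 ratio of 0.66 and 0.74 against a spread of 0.34 that it passed at the 95th but not at the 99th percentile. Mib1, a ubiquitin ligase that prepares ligands for endocytosis, was at 22.9 and 24.3 TPM. Its relative Mib2 was at 28.5 and 29.6 TPM, and the log2 ratio of Mib1 over Mib2 of -0.31 and -0.29 did not pass the spread of 0.39. With the M4 quantification this ratio did pass, at a mean of -0.52 against 0.295. Mib1-204, annotated as incomplete, held 49.4% and 46.4% of Mib1 TPM, and the complete 10231-nt Mib1-201 held 37.7% and 36.7%. By reads the long Mib1-201 held more, 1730 of 2421 in replicate 1 and 1800 of 2532 in replicate 2, beside 586 and 589 for Mib1-204. On complete coding transcripts Numb and Numbl did not differ beyond the spread, at 17.4 and 17.5 TPM and at 19.0 and 17.9 TPM.

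Numb is known for a pair of alternative exons, of which one lengthens its phosphotyrosine-binding domain and the other its proline-rich region. They are shown because transcript entries with and without them divided the Numb level. Capitals mark the exon and lower case the 15 coding bases on each side in Numb-207, 5′ to 3′ on the minus strand of mm10, with the exons at chr12:83825259-83825291 and chr12:83797197-83797343.
Numb phosphotyrosine-binding exon: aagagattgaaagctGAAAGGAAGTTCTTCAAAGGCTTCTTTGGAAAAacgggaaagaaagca
Numb proline-rich exon: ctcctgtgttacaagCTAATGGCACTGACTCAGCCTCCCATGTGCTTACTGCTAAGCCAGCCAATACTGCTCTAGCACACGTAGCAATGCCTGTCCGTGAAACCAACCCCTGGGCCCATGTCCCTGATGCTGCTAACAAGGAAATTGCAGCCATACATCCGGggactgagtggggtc
The only complete coding entry with a level above 0 was Numb-204, which skips both exons, at 17.4 and 17.5 TPM on 1182 and 1203 reads. Among entries that either include or skip the 33-base exon, those that include it held 27.9% and 32.6% of TPM, most of it in the 644-nt incomplete Numb-208 on 62.4 and 91.8 reads. By reads they held less, 123 and 91.8, beside 1182 and 1203 for entries that skip this exon. Entries with the 147-base exon held 22.8% and 21.8% of TPM, all of it in Numb-203 and Numb-202, which are annotated as targets of nonsense-mediated decay. The complete coding entries that carry 1 or both exons, Numb-201, Numb-207 and Numb-210, were listed at 0. They are annotated with 1815 to 1962 nt over chr12:83795439-83842343, beside 3549 nt over chr12:83794034-83921934 for Numb-204. Reads from the outer parts cannot be assigned to such shorter entries, so their 0 does not show that coding Numb RNA with these exons is absent.

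**Figure D3:**
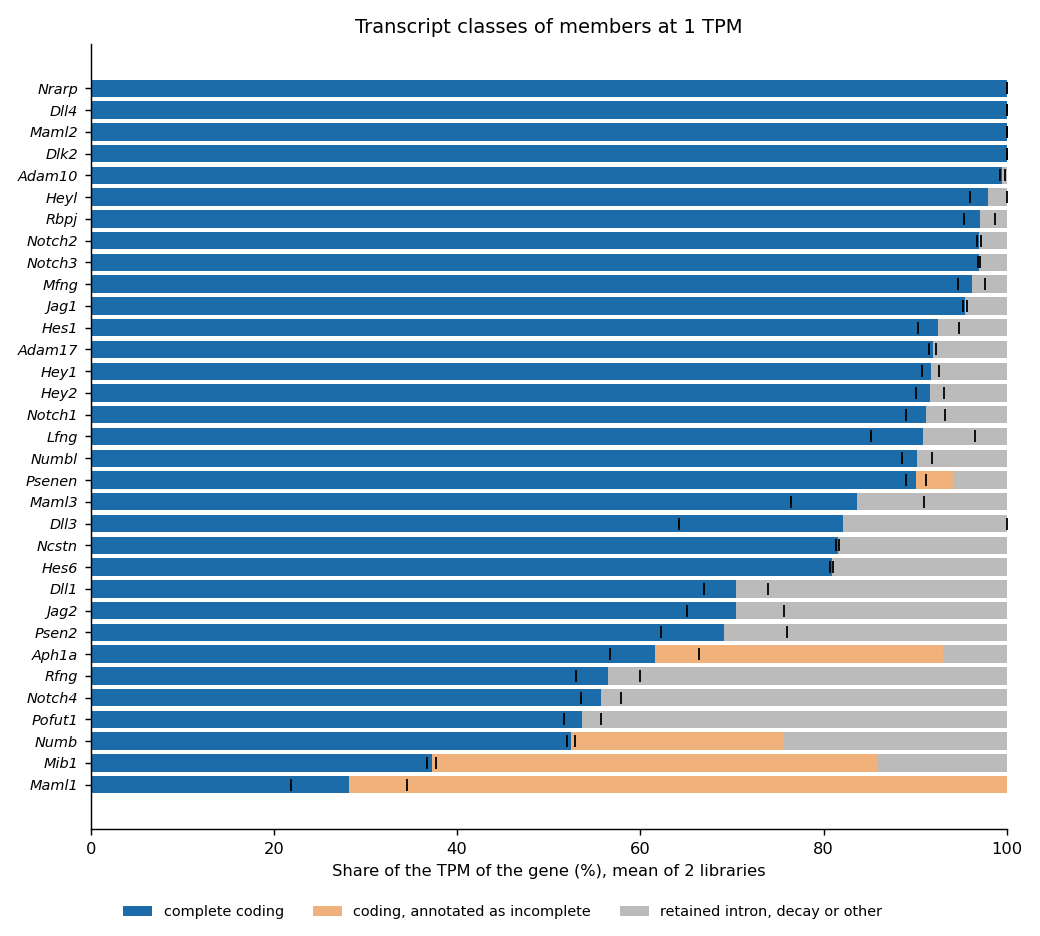
Share of the TPM of each of the 33 members at a mean of 1 TPM (percent, mean of 2 libraries) in complete coding transcripts, in coding transcripts annotated as incomplete and in other entries, with ticks for the complete coding share in each library. The complete coding share lies above 90% in 19 genes and below 50% in Mib1, at 37.2%, and in Maml1, at 28.2%.

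Across the 33 members at a mean of 1 TPM, the median share of complete coding transcripts was 90.8%, beside 85.9% for all protein-coding genes at that level. The share was under 50% in 2 members, Mib1 and Maml1, beside 17.0% of protein-coding genes. A second transcript with at least 25% of the level was found in 7 members, beside 27.1% of protein-coding genes: Aph1a, Dlk2, Maml1, Mib1, Pofut1, Rbpj and Rfng. In Dlk2 these were a pair of complete coding entries, Dlk2-203 with 63.4% and 48.0% and Dlk2-202 with 27.9% and 36.6%. No member differed 1.5-fold between M21 and M4, beside 6.87% of all genes, and the median M21 level was 0.948 times the M4 level, beside 0.949 times over all genes. At 1.2-fold, 3 members differed: Aph1a at 1.43 times, Jag2 at 1.29 times and Maml2 at 0.763 times its M4 level.

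**Figure D4:**
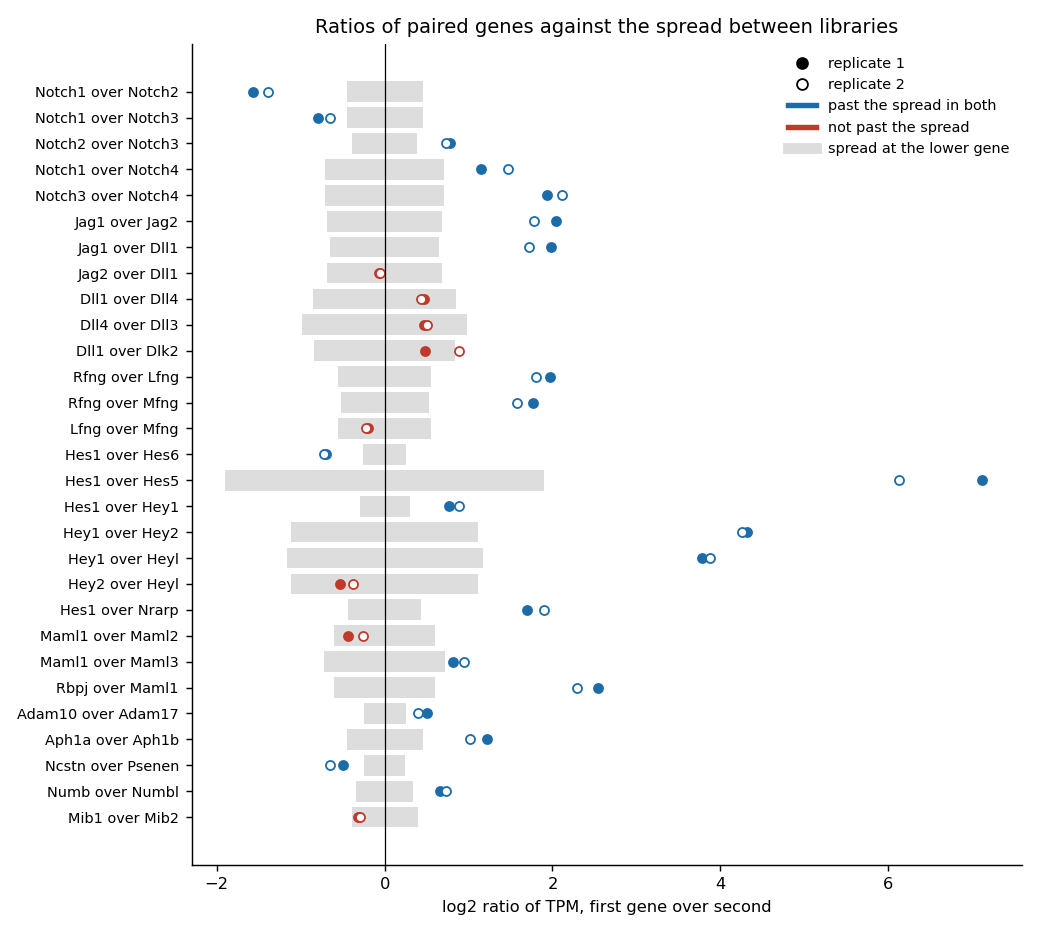
Log2 TPM ratio of 29 pairs of related genes in replicate 1 (filled) and replicate 2 (open), with a grey bar for the spread between libraries at the level of the lower gene. Blue marks the 21 pairs that passed in both libraries and red the 8 that did not, and Hes1 over Hes5 lies farthest out at log2 7.12 and 6.12.

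Levels of the members were close in the 2 libraries. Of 33 tested, 0 were called at an adjusted p under 0.05 and a 2-fold difference, beside 1.07% of all 15926 genes tested, by exact binomial tests (two-sided) of the rounded counts with Benjamini-Hochberg adjustment over all genes. Without the fold threshold, 7 members had an adjusted p under 0.05, beside 19.2% of all genes. Adam10, Jag1, Ncstn, Notch2, Notch3 and Rfng, 6 members, were higher in replicate 1, beside 10.3% of all genes, and Maml1 was higher in replicate 2, beside 8.96%. Notch2 had the smallest adjusted p of the members, 5.96e-13 in the same exact binomial test, and its log2(TPM + 1) difference of replicate 2 minus replicate 1 was -0.18. That difference was -0.13 for Notch3 and Ncstn, -0.15 for Jag1 and 0.22 for Maml1. This test sees counting error alone and no variation between pools of embryos.

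The median difference over the 33 members was -0.0012 on that scale, beside 0.012 over all genes, and the median absolute difference was 0.085, beside 0.104. Notch4 had the largest, at -0.27. With TPM rescaled to leave out spike-ins and mitochondrial genes, the median difference over the members was -0.037. That median was 0.0035 with M4 and 0.0036 with FPKM, and the value over all genes was not computed for these settings. All 4 receptors were at or above their replicate 2 level in replicate 1, with Notch1 at 10.93 and 10.92 TPM. Of the 35 members with reads in both libraries, 0 lay past the 95th percentile of the 500 genes nearest to each in level.

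**Figure D5:**
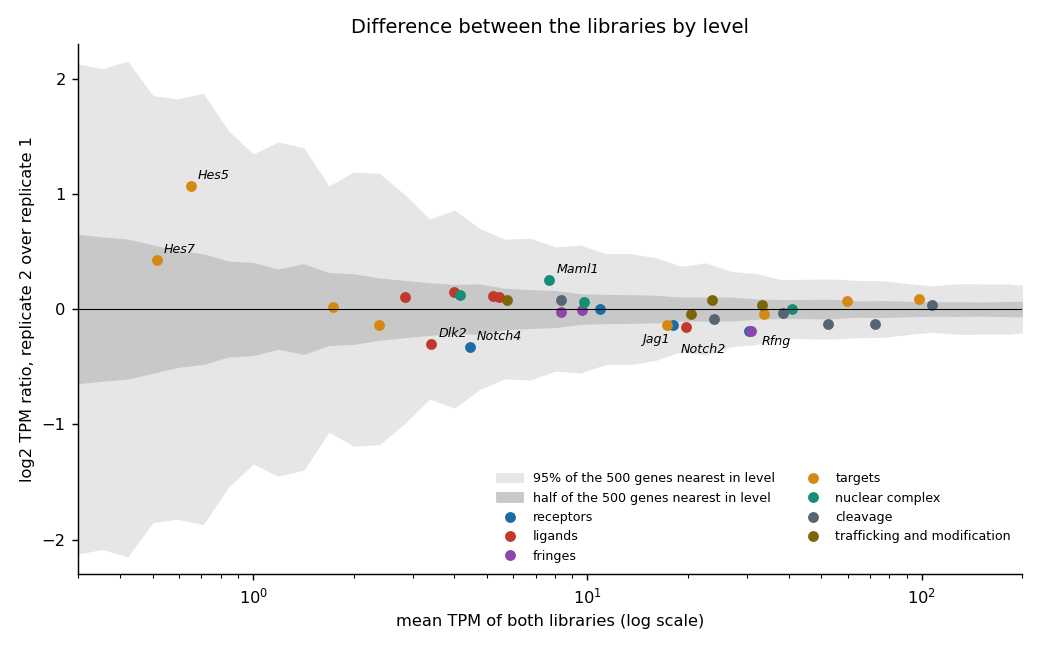
Log2 TPM ratio of replicate 2 over replicate 1 against mean TPM (log axis) for the 35 members with reads in both libraries, coloured by role, over bands that hold 50% and 95% of the 500 genes nearest in level. All 35 points lie inside the wider band, and the band opens towards low levels, where Hes5 and Hes7 lie.

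Other genes of the pathway were present alongside the members. Of 50 further genes listed, 47 were found by symbol and 41 reached 1 TPM in both libraries, beside the same 58.1% of protein-coding genes. Poglut2, Poglut3 and Tle5 had no entry under these symbols, and other names for them were not searched. The most abundant of those found were the corepressors Ctbp1 at 333 and 350 TPM and Ncor1 at 146 and 154 TPM, the Deltex family gene Dtx3 at 130 and 120 TPM and Snw1, a coregulator and splicing factor, at 125 and 121 TPM. Dlk1, the relative of Dlk2, was at 115 and 96.1 TPM, beside 3.77 and 3.06 TPM for Dlk2, and Helt, a Hes and Hey relative, had no read. Of 42 tested, 0 were called between the libraries, beside the 1.07% above, and 10 had an adjusted p under 0.05 with no fold threshold, 6 higher in replicate 1 and 4 in replicate 2, beside 19.2% of all genes in the same exact binomial test. The median of these genes was 15.7 TPM, beside 9.74 TPM for all 37 members.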

How the data were processed

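Polyadenylated RNA of 2 pools of limbs was sequenced, and the replicate numbers come from the labels. The deposited expected counts are the authors' estimates for genes and transcripts, in an RSEM table layout. TPM, posterior mean TPM and FPKM were also deposited by the authors, scaled for effective length and for depth over all entries, spike-ins included. Each library was quantified by the authors on mm10 with GENCODE M21, used here for the main values, and with M4. No source used here gives the aligner or the use of strand.

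Levels are deposited TPM, with a pseudocount of 1 for log2 differences between libraries. For genes without a read, the level of 3 reads is given. Libraries were compared by exact binomial tests (two-sided) of expected counts rounded to whole numbers, with TMM library sizes from edgeR 4.0.16 and Benjamini-Hochberg adjustment over genes at a mean of 1 TPM. DESeq2 1.42.0 gave alternative size factors. A transcript's share is its percent of the TPM summed over its gene, and coordinates, names and transcript types come from the GENCODE M21 annotation. The test was tested on simulated data. The 37 members, the other 50 pathway genes, the 30 pairs and the marker lists were chosen with earlier results of these data known. Of the 30 pairs, 1 is counted but is not reported here. All members were named, and of the other pathway genes the 4 most abundant, the lowest, the relatives of members and those not found by symbol. Marker genes Tbx5, Tbx4, Pitx1, Tbx6, Sox1 and Neurog2 and the overlapping genes were named after their values were seen.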

Additional observations from a re-analysis of the deposited data

How the results depend on the processing

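The 33 members and 41 other pathway genes at 1 TPM, the 0 called between libraries and the 22 pairs stayed within 1.5 times of these counts under the alternatives run, apart from the following. Without a fold threshold, 7 members and 10 other pathway genes passed the exact binomial test, and the fold threshold is what kept them out. A second transcript of 33% was found in 3 members in place of 7, and 3 members in place of 0 differed 1.2-fold between annotations. Over 210 repeats of the pairs, 184 kept their direction and side, 10 fell within the spread, 6 rose past it and 10 turned over, 5 of them in pairs within the spread both ways. Those that rose past the spread with counts not divided by length were Dll4 over Dll3 at 1.25, Dll1 over Dlk2 at 1.63, Hey2 over Heyl at -1.30 and Maml1 over Maml2 at -0.67. Maml1 over Maml2 also did so on complete coding transcripts, at -2.21, and Mib1 over Mib2 did so with M4, at -0.52. With counts not divided by length, the log2 ratio of Aph1a over Aph1b became -0.43 (1.12 in TPM), that of Ncstn over Psenen 1.52 (-0.57) and that of Mib1 over Mib2 0.89 (-0.30), while Hes1 over Hey1, at 0.07, and Maml1 over Maml3, at 0.44, no longer passed. Among pairs within the spread, Jag2 over Dll1 became 0.41 (-0.062), Dll1 over Dll4 -0.010 (0.45) and Lfng over Mfng 0.055 (-0.21). On complete coding transcripts alone, an alternative chosen after seeing the data like posterior mean TPM, Maml1 over Maml3 became -0.72 (0.88), Numb over Numbl -0.081 (0.70) and Dll1 over Dll4 -0.053 (0.45). With posterior mean TPM, Jag2 over Dll1 became 0.061, and Notch1 over Notch3, at -0.29, and Maml1 over Maml3, at 0.87, no longer passed. At the 99th percentile Notch1 and Notch3, Notch2 and Notch3, Notch1 and Notch4, Maml1 and Maml3, Adam10 and Adam17, and Numb and Numbl fell within the spread. The number of pairs past the spread ran from 16, with the 99th percentile, to 25, with counts not divided by length. No paired analysis was possible because there was 1 group. With 2 libraries an SD is imprecise, and members under 1 TPM rest on 20 or fewer reads.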
